A study of Mus musculus with 6 samples.

Results

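The genes described here are 41 genes of hepatic stellate cells and of the extracellular matrix, out of 34745 genes counted in primary hepatocytes of mice with liver fibrosis. They were chosen by name and role and fall into 12 collagens, 8 matrix enzymes and inhibitors, 8 matrix glycoproteins and proteoglycans and 13 markers of stellate and contractile cells. All 41 had counts above 0 in every library, the lowest count being 13, and all 41 were among the 14417 genes tested. The study asked how loss of FOXA2, a liver-enriched transcription factor, from hepatocytes affects fibrosis caused by carbon tetrachloride (CCl4), a toxin that hepatocytes turn into a damaging radical. Both groups were male mice of 12 weeks with loxP-flanked Foxa2 alleles on both chromosomes (FOXA2f/f). FOXA2f/f mice received the virus AAV8-TBG-Control, and FOXA2H-KO mice received AAV8-TBG-Cre, in each case 2 weeks before the first CCl4. Every mouse then received CCl4 for 4 weeks, with 2 injections of 0.25 ml/kg in each week, so that no library comes from a liver without CCl4. The TBG promoter drives Cre recombinase in hepatocytes, so stellate cells of FOXA2H-KO mice keep their Foxa2 alleles. Each group had 3 libraries, which the labels number 1, 2 and 4; values for single libraries are given in that order. The labels do not say that each library came from a mouse of its own, so p-values measure the spread between these libraries.

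Hepatic stellate cells lie in the space between hepatocytes and the sinusoidal endothelium. At rest they store vitamin A, and after injury they become contractile myofibroblasts, the main source of fibrillar collagen in a fibrotic liver. Fibrillar collagens type I, III and V form the scar, type IV collagen forms basement membranes, and type VI collagen forms beaded filaments around cells. Lysyl oxidases cross-link collagen and elastin, matrix metalloproteinases cut them, and tissue inhibitors of metalloproteinases (TIMPs) block that cutting. Hepatocytes themselves make little of these proteins, while sinusoidal endothelial cells also express some of them, such as the type IV collagen chains, Sparc and Vim.

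Total counts were between 20983455 and 28327765 per library. Foxa2 counts were 442, 246 and 516 in FOXA2f/f and 28, 19 and 35 in FOXA2H-KO libraries, a log2 fold change of -3.85 (SE 0.31) with an edgeR quasi-likelihood adjusted p of 0.0313. With 1 library left out, the log2 fold change of Foxa2 was between -4.17 and -3.63, and its edgeR adjusted p was under 0.05 only without FOXA2f/f replicate 2, lying between 0.0624 and 0.499 without any one of the others. With all libraries, Foxa2 was the only gene of 14417 called at an adjusted p under 0.05 and a change of at least 2-fold (0.00694% of the genes tested), and 745 genes (5.17%) had an unadjusted p under 0.05. The libraries carried the RNA of hepatocytes above all: albumin (Alb) had a mean FPKM, a count scaled to the length of the gene and the depth of the library, of 40450, and the highest of the 41 genes, decorin (Dcn), had 158.7. All 41 genes together took 0.246%, 0.198% and 0.647% of the counts in FOXA2f/f and 0.583%, 0.353% and 0.375% in FOXA2H-KO libraries. These genes were thus a small share of each hepatocyte preparation, and in such bulk samples fewer cells of a type and less RNA per cell cannot be told apart.

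None of the 41 genes was called between FOXA2H-KO and FOXA2f/f hepatocytes, in either direction, against 0.00694% of all genes tested, and none had an edgeR unadjusted p under 0.05, against 5.17%. DESeq2 and edgeR's exact test also called 0 of the 41, with 1 gene each at an unadjusted p under 0.05 (against 4.04% and 5.24% of the genes they tested), while calling 73 and 89 genes in all (0.324% and 0.617% of those they tested). The smallest unadjusted p was 0.0533 (Reln), and adjusted p-values ran from 0.941 to 1.00. The log2 fold change was above 0 for 31 genes and below 0 for 10, against 47.8% of all genes tested above 0. Its median over the 41 genes was 0.20, against -0.01 over all genes tested. No gene reached 2-fold, and 1 gene (Timp1) reached 1.5-fold. The SE of these log2 fold changes was between 0.22 and 0.66, on a scale where a 2-fold change is 1. The groups did not overlap for 1 gene, Reln, while 10.5% of all genes tested had groups without overlap.

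**Figure D1:**
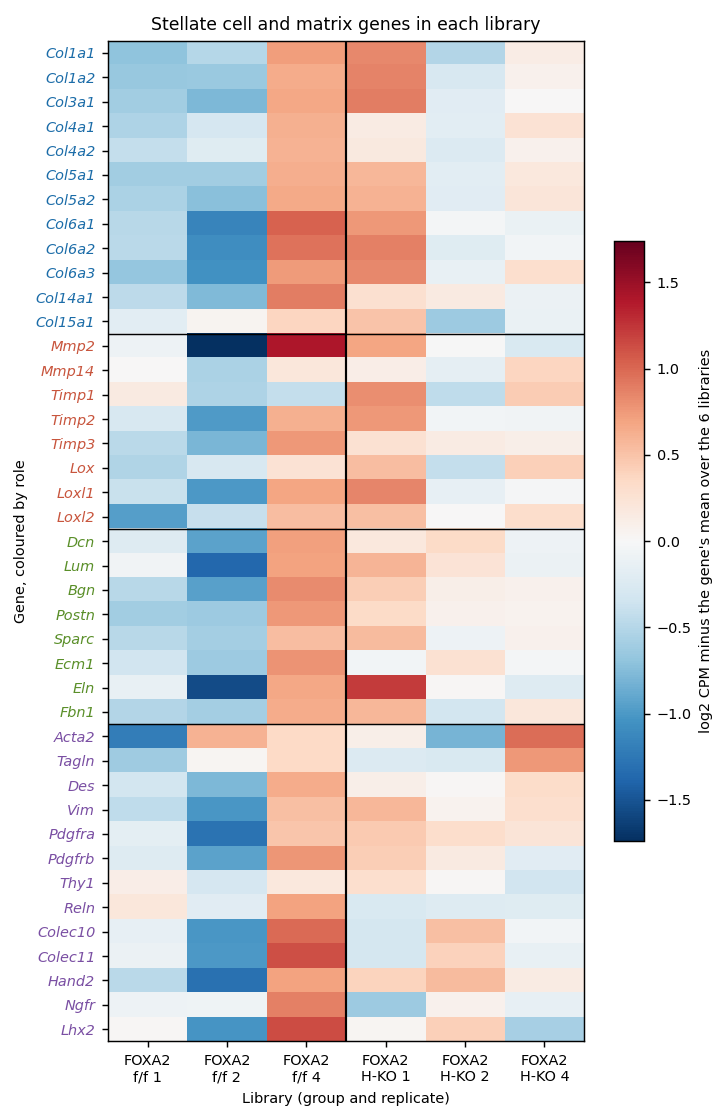
Level of each of the 41 genes in the 6 libraries, as log2 CPM (counts scaled to library depth) minus the mean of the gene over the libraries (red is above and blue below that mean), with genes in rows coloured by role and libraries in columns. Most rows are red in FOXA2f/f replicate 4 and FOXA2H-KO replicate 1 and blue in FOXA2f/f replicate 2, and 38 of 41 genes had their highest value in one of the former 2 libraries.

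The libraries of a group differed from each other more than the groups did. The 41 genes summed to 2705, 2279 and 5825 CPM in FOXA2f/f (counts scaled to library depth and, between libraries, by TMM), and to 5187, 3468 and 3776 CPM in FOXA2H-KO. The group means were 3603 ± 1936 and 4144 ± 917 CPM (SD, n = 3 each), a ratio of 1.15, whereas the highest library exceeded the lowest 2.56-fold, both of them FOXA2f/f. FOXA2f/f replicate 4 was the highest library for 25 of the 41 genes and FOXA2H-KO replicate 1 for 13. Over all genes tested these libraries were highest for 19.5% and 15.5%. FOXA2f/f replicate 2 was the lowest library for 28 genes, against 29.2% of all genes tested.

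The size of the group difference therefore rested on which libraries were counted. Without FOXA2f/f replicate 4, the median log2 fold change of the 41 genes was 0.74, 39 genes were above 0 (48.0% of all genes tested) and 25 had an unadjusted p under 0.05, all of them higher in FOXA2H-KO; 8.87% of all genes tested passed in that direction and 16.6% in either direction. Still 0 genes were called, the smallest edgeR adjusted p being 0.192. Without FOXA2f/f replicate 2, the median was -0.07, 20 genes were above 0 (49.0% of all genes tested) and 1 gene, Reln, had an unadjusted p under 0.05 (5.59% of all genes tested). The median was 0.04 without FOXA2f/f replicate 1, 0.04 without FOXA2H-KO replicate 1, 0.33 without FOXA2H-KO replicate 2 and 0.26 without FOXA2H-KO replicate 4.

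**Figure D2:**
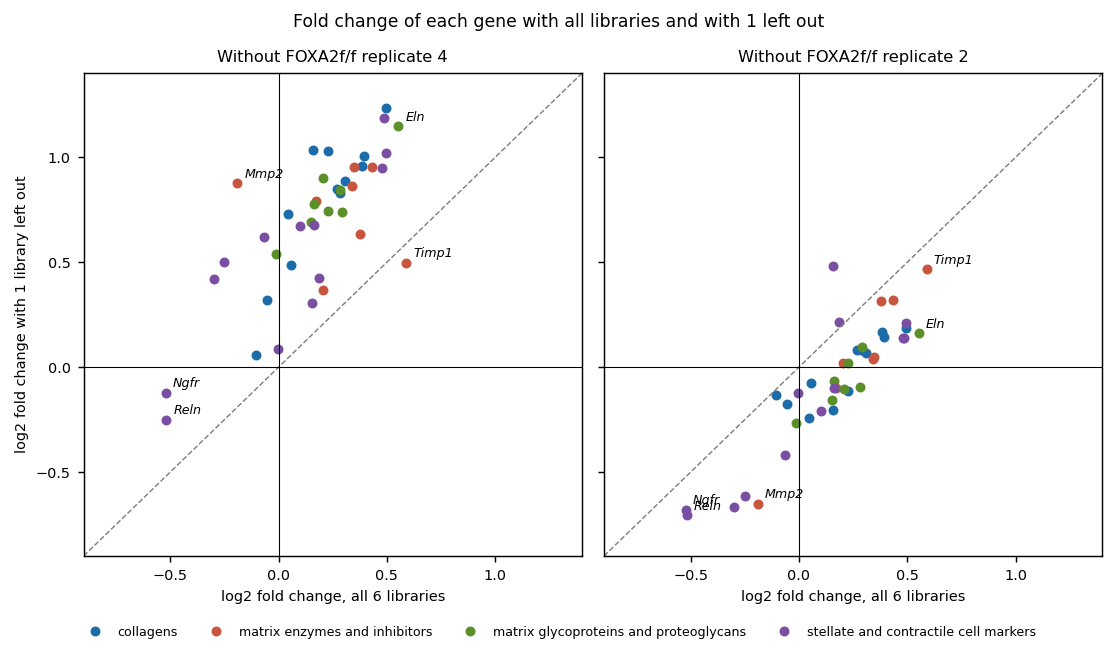
Each point is 1 of the 41 genes, coloured by role: its log2 fold change (FOXA2H-KO minus FOXA2f/f) with all 6 libraries on the horizontal axis and without FOXA2f/f replicate 4 (left) or without FOXA2f/f replicate 2 (right) on the vertical axis, with the dashed line marking equal values. On the left, 39 of 41 points lie above 0, with a median of 0.74, and on the right 20 lie above 0, with a median of -0.07.

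None of the 12 collagens was called. The log2 fold change was above 0 for 10 of them, with a median of 0.25 and a range of -0.11 to 0.49. Col1a1 (chr11:94936224-94953042, plus strand, GRCm38), which encodes the alpha 1 chain of type I collagen, had 119.5, 138 and 319 CPM in FOXA2f/f and 347, 136 and 212 CPM in FOXA2H-KO libraries. Its group means were 192 ± 111 and 232 ± 107 CPM (SD, n = 3 each), and its log2 fold change was 0.27 (SE 0.45, edgeR adjusted p = 0.987). The lowest FOXA2H-KO library lay within the range of the FOXA2f/f libraries, and FOXA2f/f replicate 4 exceeded 2 of the 3 FOXA2H-KO libraries.

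The partner chain Col1a2 (chr6:4504814-4541544, plus strand) had 183, 184 and 453 CPM in FOXA2f/f and 527, 238 and 304 CPM in FOXA2H-KO libraries, with a log2 fold change of 0.38 (SE 0.43, edgeR adjusted p = 0.983). Col3a1 (chr1:45311538-45349706, plus strand), the single chain of type III collagen and the highest collagen by FPKM, had 362, 322 and 882 CPM in FOXA2f/f and 1021, 479.6 and 555 CPM in FOXA2H-KO libraries. Its log2 fold change was 0.39 (SE 0.45, edgeR adjusted p = 0.983). In both genes the FOXA2f/f libraries 1 and 2 were below all 3 FOXA2H-KO libraries, and FOXA2f/f replicate 4 was second only to FOXA2H-KO replicate 1. Without FOXA2H-KO replicate 1 the log2 fold changes of Col1a1, Col1a2 and Col3a1 were -0.14, -0.01 and -0.01.

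Col6a3 (chr1:90765923-90843971, minus strand), the large chain of type VI collagen, had the smallest p of the collagens. Its CPM values were 72.9, 56.1 and 194 in FOXA2f/f and 207, 106 and 142 in FOXA2H-KO libraries, with a log2 fold change of 0.49 (SE 0.47, edgeR adjusted p = 0.983). The other chains of type VI collagen, Col6a1 and Col6a2, had log2 fold changes of 0.16 and 0.23. Col5a1 and Col5a2, which regulate the thickness of collagen fibrils, had 0.29 and 0.31. The basement membrane chains Col4a1 and Col4a2 had 0.06 and -0.05. Col14a1, a collagen found on the surface of fibrils, had 0.04, and Col15a1, a collagen of the basement membrane zone, had -0.11.

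**Figure D3:**
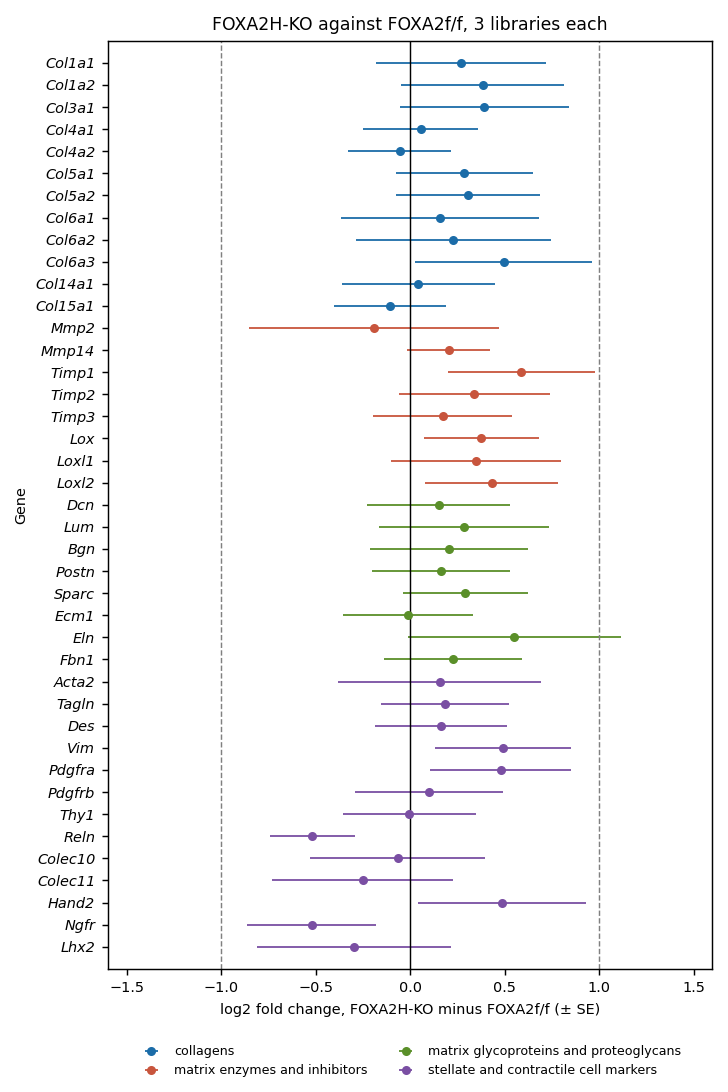
Log2 fold change of each of the 41 genes (points, FOXA2H-KO minus FOXA2f/f, 3 libraries each) with its SE (bars), by role, with dashed lines at a 2-fold change in either direction. All points lie between -0.52 and 0.59, inside the 2-fold lines.

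Chains that are assembled into the same collagen had nearly the same FPKM ratio in libraries whose levels differed several fold. Col5a1 to Col5a2 was between 0.973 and 1.11 in the 6 libraries, Col6a1 to Col6a2 between 2.78 and 3.40, Col4a1 to Col4a2 between 1.51 and 1.86, and Col1a1 to Col1a2 between 1.34 and 1.74. The levels of Col6a1 and Col6a2 themselves differed 4.54-fold and 4.07-fold between the highest and the lowest library. Col6a3 to Col6a1 had a wider range, from 0.701 to 1.14. The ratio of Col3a1 to Col1a1 was between 1.51 and 2.27. A ratio between genes depends on the gene lengths behind the deposited FPKM values, but the quotient of its highest and lowest library does not, and that quotient was 1.14 for Col5a1 to Col5a2 and 1.62 for Col6a3 to Col6a1. Across 12 ratios compared between the groups, the exact two-sided permutation p was between 0.1, the smallest that 3 against 3 libraries allow, and 0.9, and the smallest Benjamini-Hochberg adjusted value was 0.72.

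**Figure D4:**
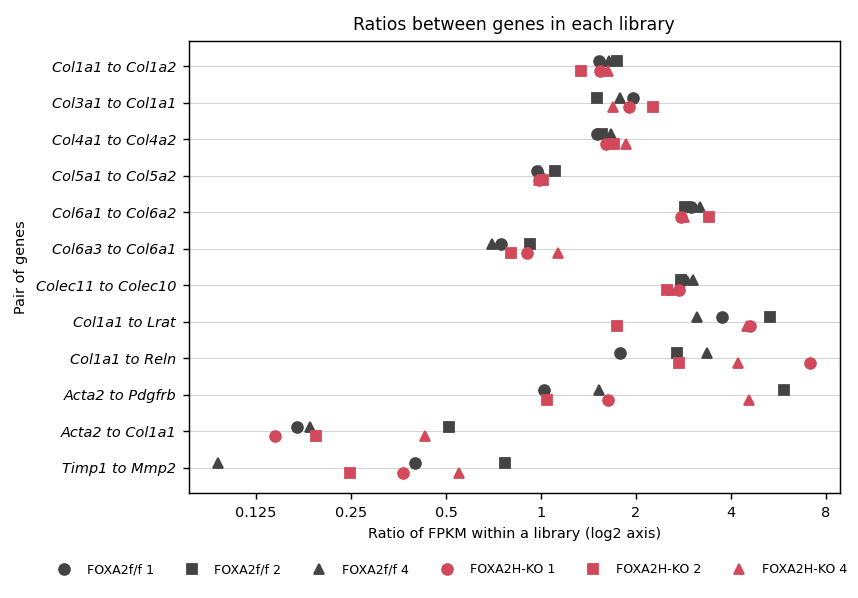
FPKM ratio between pairs of genes in each library (log2 axis), with FOXA2f/f libraries in grey and FOXA2H-KO libraries in red and a marker shape for each replicate number. Collagen chains that are assembled together lie close (Col5a1 to Col5a2 between 0.973 and 1.11), and Acta2 to Pdgfrb (1.03 to 5.89) and Timp1 to Mmp2 (0.0948 to 0.771) are spread widely in both groups.

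The bases before the start are shown for 4 of the 41 genes. Col6a3, Col3a1 and Timp1 had log2 fold changes of 0.49, 0.39 and 0.59, and Reln had -0.52. None of these genes was called, and a link between motifs and direction was not tested. RefSeq (GRCm38.p6) gave a promoter for 27 of the 41 genes, and 16 had a start within 50 bases of the annotated gene start. The 120 bases before the start were searched on both strands for the CCAAT box (CCAAT), the TATA box (TATAAA) and the GC box (GGGCGG), motifs found in many promoters. Capitals mark a match in either direction, and the sequences are written along the strand of the gene, 5′ to 3′.
Col6a3 (chr1:90843972-90844091, minus strand): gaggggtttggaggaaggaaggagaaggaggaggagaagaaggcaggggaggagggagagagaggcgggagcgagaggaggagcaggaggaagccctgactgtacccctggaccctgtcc
Col3a1 (chr1:45311418-45311537, plus strand): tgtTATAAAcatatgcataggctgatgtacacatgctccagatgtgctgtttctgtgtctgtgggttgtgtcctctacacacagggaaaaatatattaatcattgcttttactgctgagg
Timp1 (chrX:20870046-20870165, plus strand): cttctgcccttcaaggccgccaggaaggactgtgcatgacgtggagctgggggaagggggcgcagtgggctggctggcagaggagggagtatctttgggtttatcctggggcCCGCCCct
Reln (chr5:22344706-22344825, minus strand): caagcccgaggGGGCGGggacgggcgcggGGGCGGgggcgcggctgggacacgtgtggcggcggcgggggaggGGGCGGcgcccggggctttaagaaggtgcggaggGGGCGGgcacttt
Col6a3 held none of the 3 motifs in this window, Col3a1 held 1 TATA box, Timp1 held 1 GC box and Reln held 4 GC boxes. A GC box was found in 10 of the 16 windows of these genes and in 26.5% of 32851 windows over all genes. The CCAAT box was found in 3 of 16 and in 21.3% over all genes, and the TATA box in 3 of 16 and in 6.34%. A match is a run of letters in the window and not a measured binding site.

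Of the 8 matrix enzymes and inhibitors none was called, 7 had a log2 fold change above 0, and the median was 0.34. Timp1 (chrX:20870166-20874735, plus strand), a secreted inhibitor of metalloproteinases often measured as a sign of fibrosis, had the largest log2 fold change of the 41 genes. Its CPM values were 2.32, 1.43 and 1.56 in FOXA2f/f and 3.64, 1.52 and 2.82 in FOXA2H-KO libraries, with a log2 fold change of 0.59 (SE 0.39, edgeR adjusted p = 0.983). The groups overlapped, since FOXA2H-KO replicate 2 was as low as the FOXA2f/f libraries 2 and 4. Unlike most of these genes, Timp1 was not high in FOXA2f/f replicate 4.

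Lox, which oxidizes lysines of collagen and elastin for cross-linking, had 6.36, 7.51 and 10.9 CPM in FOXA2f/f and 13.2, 6.86 and 12.2 CPM in FOXA2H-KO libraries, with a log2 fold change of 0.38 (SE 0.31, edgeR adjusted p = 0.983). Its relatives Loxl1 and Loxl2 had log2 fold changes of 0.35 and 0.43. Timp2 (chr11:118301069-118355740, minus strand), which inhibits metalloproteinases and also takes part in the activation of MMP2, had 43.6, 26.8 and 81.2 CPM in FOXA2f/f and 89.6, 51.6 and 51.0 CPM in FOXA2H-KO libraries. Timp3, an inhibitor bound to the matrix, had a log2 fold change of 0.17; 21.3% of its exon bases overlap exons of another gene, Syn3, where fragments may have gone uncounted.

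Mmp2 (chr8:92827291-92853420, plus strand), the gelatinase made by stellate cells, had the widest range of the 41 genes, 8.89-fold between libraries. Its CPM values were 12.8, 4.06 and 36.1 in FOXA2f/f and 21.9, 13.5 and 11.2 in FOXA2H-KO libraries. The lowest and the highest values both belonged to FOXA2f/f, and the log2 fold change was -0.19 (SE 0.66) with all libraries, 0.88 without FOXA2f/f replicate 4 and -0.65 without FOXA2f/f replicate 2. Mmp14, a membrane-bound metalloproteinase that activates MMP2, varied least of these enzymes, 1.90-fold between libraries, with 61.0, 41.5 and 69.5 CPM in FOXA2f/f and 65.6, 54.1 and 78.7 CPM in FOXA2H-KO. The FPKM ratio of Timp1 to Mmp2 was between 0.0948 and 0.771, both ends being FOXA2f/f libraries.

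Among the 8 matrix glycoproteins and proteoglycans none was called, 7 had a log2 fold change above 0, and the median was 0.22. Dcn (chr10:97479609-97518143, plus strand), a small proteoglycan that binds collagen fibrils and the highest of the 41 genes by FPKM, had 259.9, 159 and 495 CPM in FOXA2f/f and 345, 383 and 286 CPM in FOXA2H-KO libraries. The 3 FOXA2H-KO values lay inside the range of the FOXA2f/f values, with a log2 fold change of 0.15 (SE 0.38). Sparc (chr11:55394500-55423183, minus strand), a collagen-binding glycoprotein, had 224, 207 and 451 CPM in FOXA2f/f and 457, 293 and 329 CPM in FOXA2H-KO libraries, with a log2 fold change of 0.29 (SE 0.33, edgeR adjusted p = 0.983).

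Eln (chr5:134702593-134747323, minus strand), which encodes elastin, had 10.7, 4.00 and 18.7 CPM in FOXA2f/f and 27.3, 12.0 and 10.1 CPM in FOXA2H-KO libraries. Its log2 fold change was 0.55 (SE 0.56, edgeR adjusted p = 0.983) with all libraries and -0.02 without FOXA2H-KO replicate 1, the highest library. Fbn1, the microfibril protein on which elastin is laid down, had a log2 fold change of 0.23, with 20.1% of its exon bases shared with an antisense gene. The small proteoglycans Lum and Bgn had 0.28 and 0.21, the matricellular protein Postn had 0.16, and Ecm1, a secreted glycoprotein, had -0.01. FOXA2f/f replicate 2 was the lowest library for all 8 of these genes.

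The 13 markers of stellate and contractile cells were the least uniform group: none was called, 7 had a log2 fold change above 0 and 6 below, with a median of 0.10 and a range of -0.52 to 0.49. Reln (chr5:21884454-22344702, minus strand), a secreted glycoprotein that marks stellate cells in the liver, had 259, 198 and 368 CPM in FOXA2f/f and 188, 193 and 195 CPM in FOXA2H-KO libraries. The FOXA2H-KO values were close together and all below the lowest FOXA2f/f value. Its log2 fold change was -0.52 (SE 0.23, edgeR unadjusted p = 0.0533, adjusted p = 0.941). Lower values without overlap were found for 5.96% of all genes tested. The edgeR adjusted p of Reln was 0.395 without FOXA2f/f replicate 2 and 0.471 without FOXA2f/f replicate 4. It lay between 0.9992 and 0.9999 without any one of the other libraries.

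Ngfr (chr11:95568818-95587735, minus strand), the low-affinity neurotrophin receptor p75, had 3.91, 3.95 and 7.63 CPM in FOXA2f/f and 2.69, 4.37 and 3.79 CPM in FOXA2H-KO libraries, with a log2 fold change of -0.52 (SE 0.34, edgeR adjusted p = 0.983). The lectins Colec10 and Colec11, which bind sugars on microbes and, in the liver, are made in stellate cells, had log2 fold changes of -0.07 and -0.25. Colec11 (chr12:28594173-28623377, minus strand), the higher of the pair by FPKM, had 30.2, 16.2 and 70.6 CPM in FOXA2f/f and 26.3, 42.8 and 29.6 CPM in FOXA2H-KO libraries. The FPKM ratio of Colec11 to Colec10 was 2.88 ± 0.132 in FOXA2f/f and 2.61 ± 0.121 in FOXA2H-KO (SD, n = 3 each). All 3 FOXA2f/f ratios lay above the FOXA2H-KO ratios (exact permutation p = 0.1, adjusted 0.72 over 12 ratios). Lhx2, a transcription factor of stellate cells at rest, had a log2 fold change of -0.30, and Hand2, a transcription factor of stellate cells and other fibroblasts, had 0.48; 19.6% of the exon bases of Hand2 are shared with an antisense gene.

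Pdgfra and Pdgfrb, receptors for platelet-derived growth factor, to which activated stellate cells respond by dividing, had log2 fold changes of 0.48 and 0.10. Vim (chr2:13573927-13582826, plus strand), the intermediate filament protein of mesenchymal cells, had 76.9, 51.7 and 149 CPM in FOXA2f/f and 155, 109 and 128 CPM in FOXA2H-KO libraries, with a log2 fold change of 0.49 (SE 0.36). Des, the muscle-type filament protein used to mark rodent stellate cells, had 0.16. Thy1, a surface protein of portal fibroblasts, was the lowest of the 41 genes by FPKM and had a log2 fold change of -0.0043.

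Acta2 and Tagln, which encode contractile proteins of myofibroblasts and smooth muscle, did not follow the other genes over the libraries. Acta2 (chr19:34241090-34255590, minus strand), smooth muscle actin alpha 2, had 5.15, 18.1 and 15.2 CPM in FOXA2f/f and 12.8, 6.78 and 23.3 CPM in FOXA2H-KO libraries. FOXA2H-KO replicate 4 was highest and FOXA2f/f replicate 1 lowest, and the log2 fold change was 0.16 (SE 0.54, edgeR adjusted p = 0.993). In FOXA2f/f replicate 2, where most of these genes were lowest, Acta2 was at its second highest value. The FPKM ratio of Acta2 to Pdgfrb ran from 1.03 to 5.89, a range wider than the 1.62-fold or less seen for pairs of chains of one collagen type. Tagln (15.5, 24.3 and 30.3 against 20.2, 19.8 and 40.0 CPM) was also highest in FOXA2H-KO replicate 4; 67.9% of its exon bases overlap exons of Pcsk7 and another gene, so its values are uncertain.

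Genes of the matrix outside these 41 were counted from lists chosen by role. In 4 such lists the edgeR quasi-likelihood test called 0 genes, with 3 at an unadjusted p under 0.05, against 5.17% of all genes tested. DESeq2 and edgeR's exact test each called 1, Smoc2, against 0.324% and 0.617% of all genes they tested. Collagen maturation, the folding, hydroxylation and cross-linking of collagen, was covered by 21 tested genes, with 10 above 0, 11 below and a median log2 fold change of -0.0036. Its highest gene, P4hb, a subunit of prolyl hydroxylase and a general disulfide isomerase that hepatocytes make in quantity, had 1877, 2750 and 1551 CPM in FOXA2f/f and 1390, 1715 and 1477 CPM in FOXA2H-KO libraries. Of 16 basement membrane genes, 5 were above 0 and 11 below, with a median of -0.05. Smoc2, a calcium-binding matrix protein, had 23.8, 38.2 and 23.5 CPM in FOXA2f/f and 13.02, 12.99 and 11.84 CPM in FOXA2H-KO libraries. Smoc2 was the only gene of these 4 lists with a change of at least 2-fold downward, at a log2 fold change of -1.17 (SE 0.21). The groups of Smoc2 did not overlap, as for 5.96% of all genes tested in that direction. Its adjusted p was 0.579 by the edgeR quasi-likelihood test, 0.0023 by the exact test of edgeR and 0.0022 by DESeq2. Col18a1, a basement membrane collagen that hepatocytes also make, had 781, 1006 and 738 CPM in FOXA2f/f and 654, 604 and 622 CPM in FOXA2H-KO libraries, with a log2 fold change of -0.43 (SE 0.18, edgeR adjusted p = 0.941).

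Of 20 tested matricellular and adhesive proteins, 15 were above 0 and 5 below, with a median of 0.21. Lgals1, the lectin galectin-1, had 43.0, 45.1 and 42.8 CPM in FOXA2f/f and 72.9, 50.7 and 53.6 CPM in FOXA2H-KO libraries, with a log2 fold change of 0.44 (SE 0.16, edgeR adjusted p = 0.875) and no overlap of the groups. Groups without overlap, in either direction, were found for 10.5% of all genes tested. Spp1, osteopontin, which bile duct cells also make, had a log2 fold change of 1.02 (SE 0.42, edgeR adjusted p = 0.941) with overlapping groups. The highest gene of this list was Vtn, a plasma protein made by hepatocytes, whose log2 fold change was -0.34.

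Marker lists of other cell types were summed in each library beside the 41 genes. Sinusoidal endothelial markers (16 genes) summed to 710, 423 and 1417 CPM in FOXA2f/f and 775, 901 and 933 CPM in FOXA2H-KO libraries. Macrophage markers (16 genes) summed to 1443, 690.1 and 3123 CPM in FOXA2f/f and 2421, 2172 and 1532 CPM in FOXA2H-KO. Markers of stellate cells at rest, 13 genes that share none with the 41, summed to 902, 394 and 1064 CPM in FOXA2f/f and 600.4, 849 and 670.0 CPM in FOXA2H-KO. In these 3 lists FOXA2f/f replicate 4 was the highest library and FOXA2f/f replicate 2 the lowest, as for most of the 41 genes. All the genes of these lists had counts above 0 in every library. Their median log2 fold changes were -0.03, 0.32 and -0.02 with all libraries and 0.58, 0.97 and 0.65 without FOXA2f/f replicate 4.

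Lrat, the enzyme that makes the retinyl esters stored by stellate cells at rest, had 24.6, 20.0 and 78.5 CPM in FOXA2f/f and 58.2, 60.4 and 36.4 CPM in FOXA2H-KO libraries. The FPKM ratio of Col1a1, made by activated stellate cells, to Lrat was 4.07 ± 1.13 in FOXA2f/f and 3.61 ± 1.62 in FOXA2H-KO (SD, n = 3 each, exact permutation p = 0.8). Col1a1 to Reln was 2.62 ± 0.793 in FOXA2f/f and 4.70 ± 2.25 in FOXA2H-KO, with overlapping groups (exact permutation p = 0.2).

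The markers of hepatocytes (17 genes, all above 0) summed to 179500, 198600 and 144000 CPM in FOXA2f/f and 139500, 163700 and 171700 CPM in FOXA2H-KO libraries. These sums include TMM scaling, with factors of 1.12 in FOXA2H-KO replicate 1, 1.11 in FOXA2f/f replicate 4 and 0.870 in FOXA2f/f replicate 2. As a share of counts the libraries differed less: 16.3%, 17.3% and 16.0% in FOXA2f/f and 15.7%, 16.7% and 17.0% in FOXA2H-KO. The libraries with the lowest hepatocyte sums, FOXA2H-KO replicate 1 and FOXA2f/f replicate 4, were those in which 38 of the 41 genes were highest, and the library with the highest hepatocyte sum, FOXA2f/f replicate 2, was the lowest for 28. Lymphocyte markers (15 genes, of which 5 were at 0 in at least one library, among them the T cell genes Cd3e and Cd3g) summed to 44.0, 19.8 and 86.9 CPM in FOXA2f/f and 77.4, 63.3 and 45.7 CPM in FOXA2H-KO. Cholangiocyte markers (10 genes) summed to 391, 191 and 247 CPM in FOXA2f/f and 735, 272 and 609.7 CPM in FOXA2H-KO. Their median log2 fold change was 0.82, with 7 of 8 tested genes above 0. By the edgeR quasi-likelihood test 2 had an unadjusted p under 0.05 (5.17% of all genes tested) and 0 were called. The groups did not overlap for 3, all higher in FOXA2H-KO, against 10.5% of all genes tested in either direction. Neutrophil markers (10 genes, Ly6g at 0 in some libraries) summed to 126, 7.79 and 63.0 CPM in FOXA2f/f and 11.3, 18.3 and 9.53 CPM in FOXA2H-KO, and their highest library was FOXA2f/f replicate 1, where 0 of the 41 genes were highest. Their median log2 fold change was -3.20, the furthest from 0 of the lists. By the edgeR quasi-likelihood test 7 of 9 tested genes had an unadjusted p under 0.05 (5.17% of all genes tested) and 0 were called. DESeq2 called 1 and the exact test of edgeR 4, against 0.324% and 0.617% of all genes they tested. The groups did not overlap for 1 neutrophil gene, lower in FOXA2H-KO, as for 5.96% of all genes tested. The neutrophil sum in FOXA2f/f replicate 2 lay below that of every FOXA2H-KO library. Smooth muscle markers (10 genes, none at 0, of which Des, Tagln and Acta2 are among the 41) summed to 139, 159 and 204 CPM in FOXA2f/f and 174, 149.9 and 198 CPM in FOXA2H-KO. The part of any of these cell types in the values of the 41 genes was not tested.

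**Figure D5:**
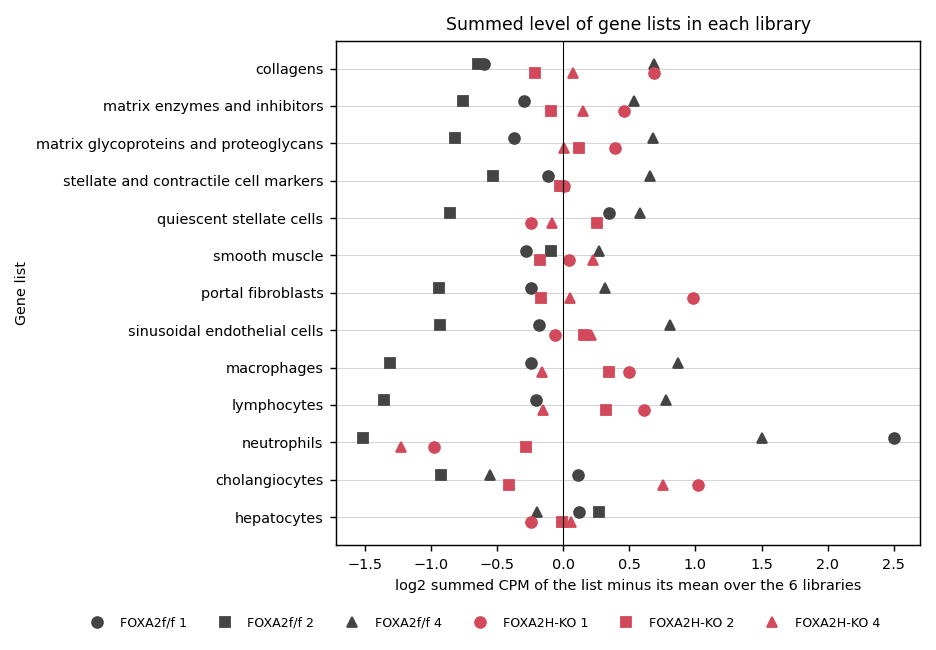
Summed CPM of 13 gene lists in each library, as log2 minus the mean of the list over the 6 libraries, with FOXA2f/f libraries in grey and FOXA2H-KO libraries in red and a marker shape for each replicate number. For most lists FOXA2f/f replicate 4 (grey triangles) is to the right and FOXA2f/f replicate 2 (grey squares) to the left. For hepatocytes their order is turned, with 144000 and 198600 CPM after TMM scaling, or 16.0% and 17.3% of counts.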

How the data were processed

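For each of the 6 libraries the authors deposited whole-number counts of fragments per gene, without normalization, and FPKM values per gene, scaled to the library total. Hepatocytes were obtained by collagenase perfusion and low-speed centrifugation, and poly-A RNA was made into paired-end TruSeq libraries, which do not keep the strand, and run on an Illumina HiSeq. The submitters' processing notes name CASAVA 1.8, TopHat2 2.1.0, HTSeq, edgeR and the build mm10; the gene annotation is not given in the sources used here. The table that joins all libraries held the same values as the files per library (12 of 12 columns) and was not used separately. Gene symbols were found for 34267 of 34745 identifiers, and positions and exon overlaps are those of GENCODE on GRCm38. HTSeq in its usual mode leaves out fragments that fall on 2 genes; its settings are not given in the sources used here.

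Differences between the groups were tested on the counts with edgeR 4.0.16 in R 4.3.3 (filterByExpr, TMM scaling, two-sided quasi-likelihood test on group, Benjamini-Hochberg adjustment over all genes tested). A gene was called at an adjusted p under 0.05 and a fold change of at least 2, the thresholds of the study. At these thresholds the paper, which does not describe its test, reported many more genes between these groups than were called here. CPM values use the TMM-scaled library size, with scaling factors between 0.870 and 1.12. Levels of different genes were compared by FPKM only. The test was tested on simulated data with known fold changes. Counts of the 41 genes were lowest for Thy1 (13 to 31) and Timp1 (26 to 99), where the relative counting error is largest. Between replicates of a group, the chi-square of the counts was 37.5 to 131 times its degrees of freedom, so none was a library deposited again.

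The 41 genes and all lists were chosen with earlier results of these data known. Full statistics were given for the 2 genes of each role with the smallest p, values by library also for the gene of each role with the highest FPKM and for Acta2 and Col1a1, and outside the 41 genes for some of those that have the 2 smallest p or the highest FPKM of their list. Mmp2, Mmp14, Tagln, Vim and Lrat, and the genes Gli1, Cd3e, Cd3g and Ly6g, were named after their values were seen. Some genes of the lists are not reported here. The 17 lists rest on general knowledge of liver cells and matrix, and 237 of 243 entries were found in the files. Alternatives were DESeq2 1.42.0, edgeR's exact test with tagwise dispersion, library size alone, no filter beyond 1 count, at least 10 counts in every library, limma-trend (limma 3.58.1) applied to log2(FPKM + 1) where the mean FPKM was at least 0.1, leaving out single libraries, a block for the replicate number, no fold threshold and unadjusted p-values; edgeR's robust quasi-likelihood fit was added after seeing the data.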

Additional observations from a re-analysis of the deposited data

How the results depend on the processing

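The number of the 41 genes called stayed at 0 under each alternative: other tools, scalings, filters, thresholds and each library left out. The number of all genes called, 1 by the edgeR quasi-likelihood test, was 73 by DESeq2, 89 by edgeR's exact test, 2 without a filter beyond 1 count, and 0 with library size alone and with limma on log2(FPKM + 1); it ranged from 0 to 6 with 1 library left out. The median log2 fold change of the 41 genes, 0.20, ranged from -0.07 to 0.74 with 1 library left out and was 0.33 on the FPKM scale. With library size alone it was 0.26, while the median of all genes moved from -0.01 to 0.10, a difference of 0.15 between these medians against 0.22 with TMM. The cause of these shifts was not tested. Signs changed for 4 of the 41 genes with library size alone and for 6 on the FPKM scale, among them Colec11 (0.09) and Mmp2 (0.22).

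With the replicate number as a block, 0 genes were called, the median of the 41 genes was 0.32 and Mmp2 was at 0.29. The labels do not say whether equal numbers pair the libraries. Same-numbered libraries had correlations of -0.07, 0.03 and -0.23 between their deviations from the group means. These values show no sign of pairing, but 3 libraries in each group are too few to settle it. With 1 library left out, log2 fold changes ran from -0.38 to 0.49 for Acta2, from -0.16 to 0.69 for Dcn, from -0.61 to 0.50 for Colec11, from -0.65 to 0.88 for Mmp2, from -0.01 to 0.96 for Col1a2, from -0.01 to 1.00 for Col3a1, from -0.02 to 1.15 for Eln and from -0.14 to 0.85 for Col1a1. Foxa2 stayed lower in FOXA2H-KO under each alternative, while its adjusted p varied widely. Values under 0.05 came from DESeq2 (4.16e-29), the exact test of edgeR (5.95e-22) and edgeR's robust fit (0.0296). Values were also under 0.05 without a filter beyond 1 count (0.000666) and with at least 10 counts in every library (0.0390). Above 0.05 were 0.124 with library size alone, 0.109 with limma on the FPKM scale and 0.0536 with the replicate block. Leaving out 1 library gave values on both sides of 0.05. Depth limits the lowest of the 41 genes most, Thy1 with 13 to 31 counts in a library.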

Other observations

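Markers of portal fibroblasts and of the mesothelium on the liver surface were kept in one list of 12 genes, with Eln and Thy1 of the genes above. FOXA2H-KO replicate 1 was the highest library for 10 of the 12, against 15.5% of all genes tested. Of 10 tested genes, 8 had a log2 fold change above 0 and 2 below, with a range of -0.59 to 1.65. The median of the list was 0.52 with all libraries and 0.13 without FOXA2H-KO replicate 1. The groups did not overlap for 1 gene, lower in FOXA2H-KO, as for 5.96% of all genes tested. That gene is not among those named below, which were all highest in FOXA2H-KO replicate 1. The list summed to 41.2, 25.4 and 60.9 CPM in FOXA2f/f and 96.3, 43.4 and 50.6 CPM in FOXA2H-KO libraries (replicates 1, 2 and 4). Msln, mesothelin, had 1.25, 0.823 and 1.75 CPM in FOXA2f/f and 7.319, 1.203 and 3.654 CPM in FOXA2H-KO libraries, with a log2 fold change of 1.65 (SE 0.62, edgeR adjusted p = 0.902). Upk3b, an uroplakin of mesothelial cells, had 2.36, 1.70 and 2.86 CPM in FOXA2f/f and 9.673, 1.604 and 5.688 CPM in FOXA2H-KO libraries. Dpt, a collagen-binding matrix protein and the highest of the list by FPKM, had 15.1 CPM in FOXA2H-KO replicate 1 and 12.97 CPM in FOXA2f/f replicate 4, against 2.19 to 6.54 CPM in the other 4 libraries. Gli1, a target of hedgehog signalling that marks a subset of fibroblasts, was named after its values were seen. It had 18 counts in FOXA2H-KO replicate 1 and 0 to 2 counts in each of the others. It did not pass the filter on low counts.

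Of the genes of matrix degradation outside the 41, the edgeR quasi-likelihood test called 0. Of 15 tested, 7 had a log2 fold change above 0 and 8 below, with a median of -0.03. By that test 0 had an unadjusted p under 0.05, against 5.17% of all genes tested. The exact test of edgeR gave 2 (5.24% of all genes it tested) and DESeq2 gave 2 (4.04%), and neither called any. Mmp13, an interstitial collagenase, had 0.816, 0.823 and 2.35 CPM in FOXA2f/f and 3.94, 1.52 and 3.19 CPM in FOXA2H-KO libraries, with a log2 fold change of 1.08 (SE 0.53, edgeR adjusted p = 0.941). Mmp15, a membrane-bound metalloproteinase and the highest of the list by FPKM, had a log2 fold change of -0.36 (SE 0.17, edgeR adjusted p = 0.941). Of the list, Mmp10 and Timp4 were at 0 in at least one library.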
